A study of Mus musculus with 15 samples.

Results

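The 10 genes described here encode the ligand TGF-β1, its 2 receptor chains, the SMAD proteins that carry the signal and the repressors and target that answer it: Tgfb1, Tgfbr1, Tgfbr2, Smad2, Smad3, Smad4, Smad7, Ski, Skil and Id2. They were chosen by symbol, with no threshold on measured values but with earlier results of these data known, and all 10 were found among the 11201 genes of the table and passed the filter for testing. RNA-seq was run on mouse microglia made in culture from C57BL/6-ATCC embryonic stem cells (ESdM) and kept in serum-free N2 medium. The series compared states of activation of these cells. One group received 50 ng/ml TGFb for 24 h (3 libraries), another 500 ng/ml LPS with 20 ng/ml IFNg for 24 h (3 libraries), another 100 U/ml IL4 for 24 h (3 libraries), and the last was left untreated (6 libraries). All groups share the stem cell source and the medium. The labels do not say whether the libraries within a group were cultured or differentiated separately. The p-values therefore describe variation among these particular libraries, some or all of which may be technical.

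TGF-β is secreted as a latent complex. Once released it binds the type II receptor TGFBR2, which recruits and phosphorylates the type I receptor TGFBR1 (ALK5), and TGFBR1 in turn phosphorylates SMAD2 and SMAD3, which join SMAD4 and enter the nucleus. The pathway is known for its negative feedback, in which SMAD7 blocks the receptor and SKI and SKIL (SnoN) hold SMAD complexes in a repressed state. In microglia TGF-β is known as a survival and maturation factor.

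Recovered read totals were 2682564 to 18676181 per library, with a median of 7589049. Within groups, pairs of libraries differed by more than counting noise, with a chi-square per degree of freedom of 1.58 to 2.16 for TGFb, 2.59 to 7.57 for IL4 and 1.42 to 2.91 for untreated libraries. LPS+IFNg replicate 3 stood apart: the same measure was 2.88 between LPS+IFNg replicates 1 and 2, and 25.95 and 26.5 between replicate 3 and each of them. Id2, and the list genes whose LPS+IFNg mean is printed below and shifted by over 10% without this library, are therefore also given without it. Cx3cr1 and Tmem119, near the floor with LPS+IFNg, are exceptions and are given with their range there instead. No call over untreated of a list gene named below was lost without replicate 3. Of 12 genes that define microglia, 10 were in the table. Csf1r, Tyrobp and Trem2 averaged 2790.5, 2900.0 and 1693 in untreated libraries, whereas Cx3cr1 and Tmem119 were near the floor there, at 2.60 and 7.62. The summed level of the 10 was 19461 to 20418 in TGFb, 12578 to 13239 in LPS+IFNg, 16419 to 17207 in IL4 and 14013.5 to 14753 in untreated libraries, so it moved with the stimuli. None of 10 neuronal markers was in the table. Absence from it does not show that a gene was not expressed, and the microglia genes C1qa and P2ry12 were absent too. Klf4, the 1 of 10 pluripotency markers in it, was at 68.3 to 76.8 in TGFb, 58.9 to 72.3 in LPS+IFNg, 94.4 to 121 in IL4 and 57.4 to 88.7 in untreated libraries. Pecam1, the 1 of 10 fibroblast and endothelial markers, was at 6.02 to 15.8 in LPS+IFNg, 1 to 2.32 in TGFb, 1.41 to 2.39 in IL4 and 1 to 1.89 in untreated libraries. It was thus higher in every LPS+IFNg library than in all others. Of the astrocyte list 3 of 10 genes were present, most of their sum being Aldoc, and it was 1678 to 1899 in TGFb, 1392 to 1484 in LPS+IFNg, 1703 to 1837 in IL4 and 1446 to 1612 in untreated libraries. Of the oligodendrocyte list 4 of 10 were present, summing to 232 to 252 in TGFb, 183 to 202 in LPS+IFNg, 192 to 208 in IL4 and 172 to 242 in untreated libraries. Most of that sum was Cnp, whereas Cspg4 (NG2), a marker of oligodendrocyte precursors, was at 27.7 to 29.6 in TGFb, 1 in LPS+IFNg, 1.41 to 2.69 in IL4 and 1 to 6.62 in untreated libraries, so it was higher in every TGFb library than in all others. The part of these shifts in the results was not tested. In bulk RNA, fewer cells of a type and less RNA per cell cannot be told apart.

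All levels below are normalized read counts (read counts divided by 1 factor per library), and log2 fold changes are limma estimates on log2(value + 1), which understates the change of low genes. A gene was called changed at an adjusted p below 0.05, with Benjamini-Hochberg adjustment over all 11138 genes tested. TGFb changed 9 of the 10 genes against untreated, raising 7 (Skil, Smad7, Ski, Id2, Tgfbr1, Tgfb1 and Tgfbr2) and lowering 2 (Smad2 and Smad3), where 47.5% of all tested genes were called (24.1% higher and 23.4% lower). LPS+IFNg changed 5 of the 10 (2 higher, 3 lower) against a background of 58.9% (29.5% higher and 29.4% lower), and IL4 changed 2 (1 higher, 1 lower) against 17.2% (9.89% higher and 7.33% lower). With every library rescaled to 1 common total, the share of all calls that were higher was 37.8% in place of 50.8% for TGFb, 35.5% in place of 50.0% for LPS+IFNg and 33.9% in place of 57.4% for IL4. The LPS+IFNg and IL4 counts are thus close to the background and are no result about these 10 genes as a set. At 2-fold or more, TGFb changed 4 of the 10 genes where 5.05% of all tested genes passed, LPS+IFNg changed 1 where 10.7% passed, and IL4 none where 1.02% passed. The 3 comparisons share the untreated libraries.

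**Figure D1:**
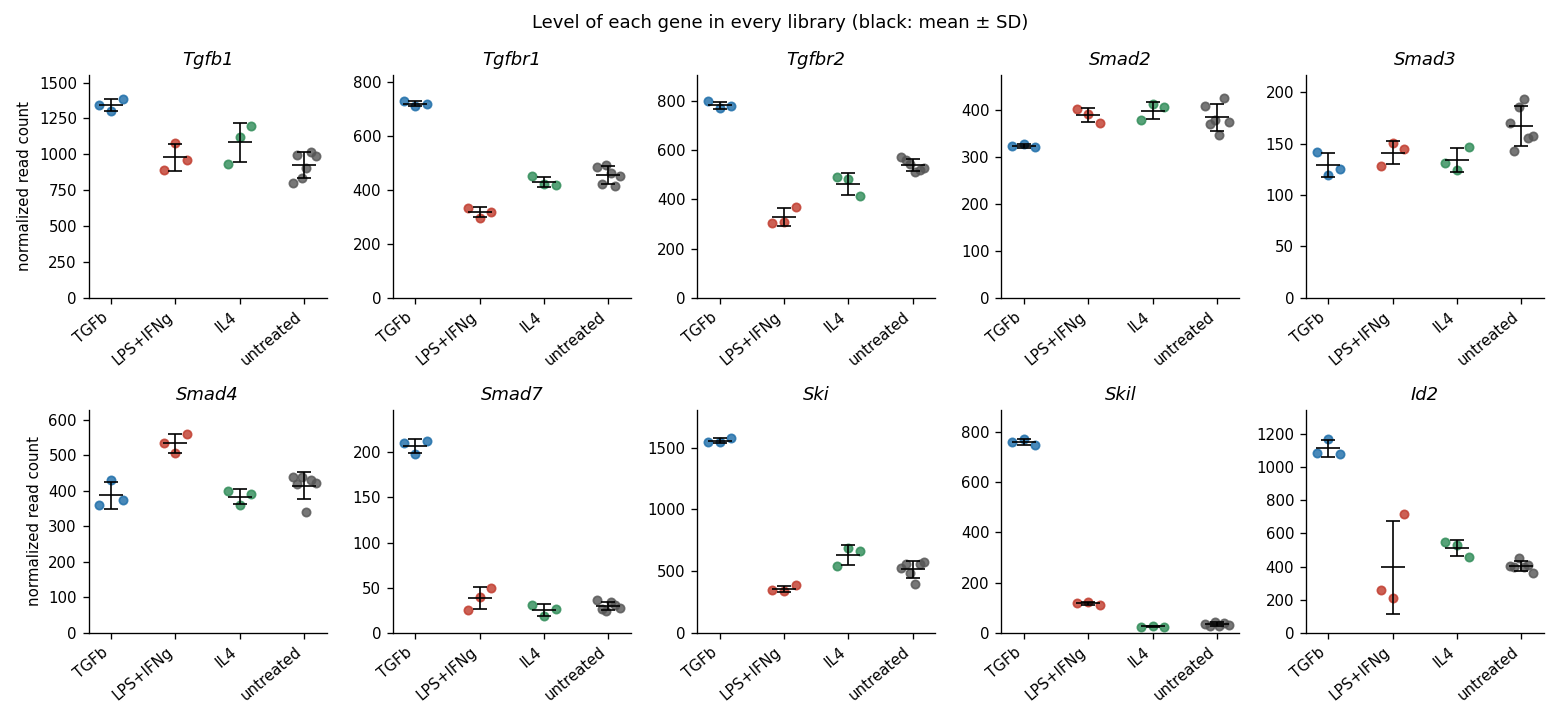
Level of each of the 10 genes in every library, as normalized read count on a linear axis from 0, with the mean ± SD of each group in black (TGFb, LPS+IFNg and IL4, n = 3 each, untreated, n = 6). The 3 TGFb libraries lie above all others for Tgfb1, Tgfbr1, Tgfbr2, Smad7, Ski, Skil and Id2 and below all others for Smad2, and 1 LPS+IFNg library at 717 stands away from its group for Id2.

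Tgfb1 (chromosome 7, 25687002 to 25705077, GRCm38), the ligand, was at 1343, 1304 and 1384 in the TGFb libraries, 893, 1082 and 963 in LPS+IFNg, 933, 1121 and 1197 in IL4, and 799.7 to 1017 (median 949) in untreated libraries. Every TGFb library was above every other library, and the other 3 groups overlapped. The mean was 1344 ± 39.9 with TGFb (SD, n = 3) and 924 ± 91.0 in untreated libraries (SD, n = 6), which is 1.45-fold and a log2 fold change of 0.54 (SE 0.085, adjusted p 3.67e-05). LPS+IFNg gave a log2 fold change of 0.09 (95% interval -0.09 to 0.26, adjusted p 0.407) and IL4 one of 0.23 (0.05 to 0.41, adjusted p 0.0768), so neither passed. Tgfb1 ranked TGFb, IL4, LPS+IFNg, untreated by mean, and only TGFb differed from its neighbour. The IL4 value rests on 1 library: without IL4 replicate 1 it was 0.33 and passed (adjusted p 0.0177).

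The receptor genes rose with TGFb and fell with LPS+IFNg. Tgfbr1 (chromosome 4, 47353222 to 47414931), the type I kinase, was at 730.3, 711 and 719.8 in TGFb, 335, 297 and 318 in LPS+IFNg, 452, 421 and 419 in IL4, and 413 to 492 (median 458) in untreated libraries. TGFb libraries lay above and LPS+IFNg libraries below all others, while IL4 and untreated libraries overlapped. Means were 720.3 ± 9.82 with TGFb, 317 ± 18.7 with LPS+IFNg, 431 ± 18.9 with IL4 and 455 ± 32.7 untreated. The log2 fold change over untreated was 0.66 for TGFb (SE 0.065, adjusted p 1.17e-07), -0.52 for LPS+IFNg (SE 0.065, adjusted p 1.45e-06) and -0.08 for IL4 (95% interval -0.21 to 0.06, adjusted p 0.476).

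Tgfbr2 (chromosome 9, 116084293 to 116175360), the type II kinase that binds the ligand first, was at 798, 770.5 and 779 in TGFb, 305, 306 and 370.3 in LPS+IFNg, 492, 481 and 413 in IL4, and 513 to 573 (median 534) in untreated libraries. No group overlapped its neighbour, in the order TGFb, untreated, IL4, LPS+IFNg. The log2 fold change was 0.54 for TGFb (SE 0.070, adjusted p 4.61e-06), -0.72 for LPS+IFNg (SE 0.070, adjusted p 5.49e-08) and -0.22 for IL4 (SE 0.070, adjusted p 0.0341). The IL4 call was lost without any 1 of untreated replicates 1, 2 or 3 or IL4 replicates 2 or 3, with adjusted p of 0.0563 to 0.242. Without LPS+IFNg replicate 3 the LPS+IFNg value was -0.52 for Tgfbr1 and -0.82 for Tgfbr2. Between LPS+IFNg and TGFb, the mean of Tgfbr1 in LPS+IFNg libraries was 44.0% of the TGFb mean and that of Tgfbr2 was 41.8%.

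The SMAD genes that carry the signal moved little and not together. Smad2 (chromosome 18, 76241580 to 76310963), a receptor-regulated SMAD, was at 323, 329 and 321 in TGFb, 403, 393 and 373 in LPS+IFNg, 378, 414 and 406 in IL4, and 347 to 427 (median 378) in untreated libraries. The TGFb libraries were below all 12 others, which overlapped among themselves. The mean was 324 ± 4.07 with TGFb and 385 ± 28.5 in untreated libraries, a log2 fold change of -0.24 (SE 0.066, adjusted p 0.00514). LPS+IFNg gave 0.02 (95% interval -0.12 to 0.16) and IL4 0.05 (-0.08 to 0.19), neither of which passed.

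Smad3 (chromosome 9, 63646767 to 63757994), the other receptor-regulated SMAD, was at 142, 119.5 and 126 in TGFb, 129, 150.4 and 145 in LPS+IFNg, 131, 124 and 147 in IL4, and 142 to 193 (median 164) in untreated libraries. All stimulated means were below the untreated mean of 167 ± 19.4 (SD, n = 6). LPS+IFNg and IL4 libraries overlapped the untreated ones, and the highest TGFb value, 142.2, lay just under the lowest untreated value, 142.4. TGFb passed with a log2 fold change of -0.37 (SE 0.107, adjusted p 0.00884), LPS+IFNg gave -0.24 (SE 0.107, adjusted p 0.065) and IL4 -0.31 (SE 0.107, adjusted p 0.0511). The TGFb call was lost without TGFb replicate 2 (-0.31, adjusted p 0.0525), the shallowest TGFb library with 56 Smad3 reads, and without the 3 libraries of fewest reads (-0.25, adjusted p 0.124). The LPS+IFNg call was made when libraries were rescaled to the same total (-0.36, adjusted p 0.00722). No difference in Smad3 between 2 stimuli passed, with log2 differences of -0.13 to 0.08.

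Smad4 (chromosome 18, 73639009 to 73703780), the common partner, was the 1 gene of the 10 that did not pass the test with TGFb. It was at 359, 431 and 374 in TGFb, 535, 506 and 560.0 in LPS+IFNg, 399.8, 360.0 and 391 in IL4, and 339 to 439 (median 426) in untreated libraries. The LPS+IFNg libraries were above all others, and the remaining groups overlapped. LPS+IFNg gave a log2 fold change of 0.37 (SE 0.081, adjusted p 0.000756), or 0.33 without LPS+IFNg replicate 3. TGFb gave -0.09 (95% interval -0.27 to 0.08, adjusted p 0.359) and IL4 -0.11 (-0.28 to 0.06, adjusted p 0.415). Untreated replicate 4, the shallowest library, held the lowest untreated value, and without the 3 libraries of fewest reads the TGFb value was -0.22 and passed (adjusted p 0.0184). A processed pseudogene lies on the opposite strand within Smad4 in the annotation, and whether the counting used strand is not given in the sources used here.

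The inhibitory SMAD and the nuclear repressors showed the widest changes. Smad7 (chromosome 18, 75367529 to 75395935), which competes for the receptor and brings ubiquitin ligases to it, was at 211, 198 and 213 in TGFb, 25.6, 39.5 and 49.7 in LPS+IFNg, 31.1, 18.4 and 26.4 in IL4, and 24.3 to 35.8 (median 28.8) in untreated libraries. TGFb libraries stood clear of all others, and the other groups overlapped. The mean was 207 ± 7.75 with TGFb and 29.5 ± 4.53 in untreated libraries, 7.02-fold, with a log2 fold change of 2.78 (SE 0.20, adjusted p 2.45e-09). LPS+IFNg gave 0.33 (95% interval -0.10 to 0.75, adjusted p 0.173), and without its replicate 1 it gave 0.58 and passed (adjusted p 0.022), while without replicate 3 it gave 0.12. IL4 gave -0.23 (-0.66 to 0.19, adjusted p 0.486). Outside TGFb these levels rest on 12 to 70 reads per library.

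Ski (chromosome 4, 155154075 to 155222592), a nuclear repressor of SMAD complexes, was at 1544, 1545 and 1580.3 in TGFb, 346, 334 and 383 in LPS+IFNg, 539, 682 and 665 in IL4, and 395 to 568 (median 538) in untreated libraries. TGFb libraries were above and LPS+IFNg libraries below all others, and IL4 overlapped untreated. The mean was 1557 ± 20.5 with TGFb and 513 ± 66.1 in untreated libraries, 3.04-fold, with a log2 fold change of 1.61 (SE 0.098, adjusted p 2.52e-10). LPS+IFNg gave -0.52 (SE 0.098, adjusted p 0.000156), or -0.58 without its replicate 3. IL4 gave 0.30 (SE 0.098, adjusted p 0.0444), a call lost when any 1 of untreated replicates 1, 3 or 4 or IL4 replicates 2 or 3 was left out, with adjusted p of 0.0545 to 0.234, and under rescaling to the same total (0.23, adjusted p 0.118).

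Skil (chromosome 3, 31095058 to 31122577), the paralog of Ski, had the largest fold of the 10 genes. It was at 761, 770.5 and 747 in TGFb, 120.1, 121 and 108 in LPS+IFNg, 24.5, 28.2 and 23.7 in IL4, and 25.2 to 43.0 (median 33.7) in untreated libraries. The TGFb libraries and, well below them, the LPS+IFNg libraries each stood apart from all others, while IL4 and untreated libraries overlapped. The mean was 759 ± 12.1 with TGFb, 117 ± 7.11 with LPS+IFNg, 25.5 ± 2.42 with IL4 and 33.8 ± 7.03 untreated, so that TGFb libraries held 22.4-fold and LPS+IFNg libraries 3.45-fold the untreated mean. The log2 fold change was 4.47 for TGFb (SE 0.15, adjusted p 7.69e-14) and 1.78 for LPS+IFNg (SE 0.15, adjusted p 7.80e-09), or 1.83 without LPS+IFNg replicate 3. IL4 gave -0.37 (95% interval -0.69 to -0.06, adjusted p 0.099), which passed in 1 of the alternatives run, without untreated replicate 4 (-0.45, adjusted p 0.029). By fold over untreated, Skil ranked 5 among the 11138 genes in TGFb, Smad7 ranked 40 and Ski ranked 151. Ski and Skil therefore moved the same way with TGFb and opposite ways with LPS+IFNg.

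**Figure D2:**
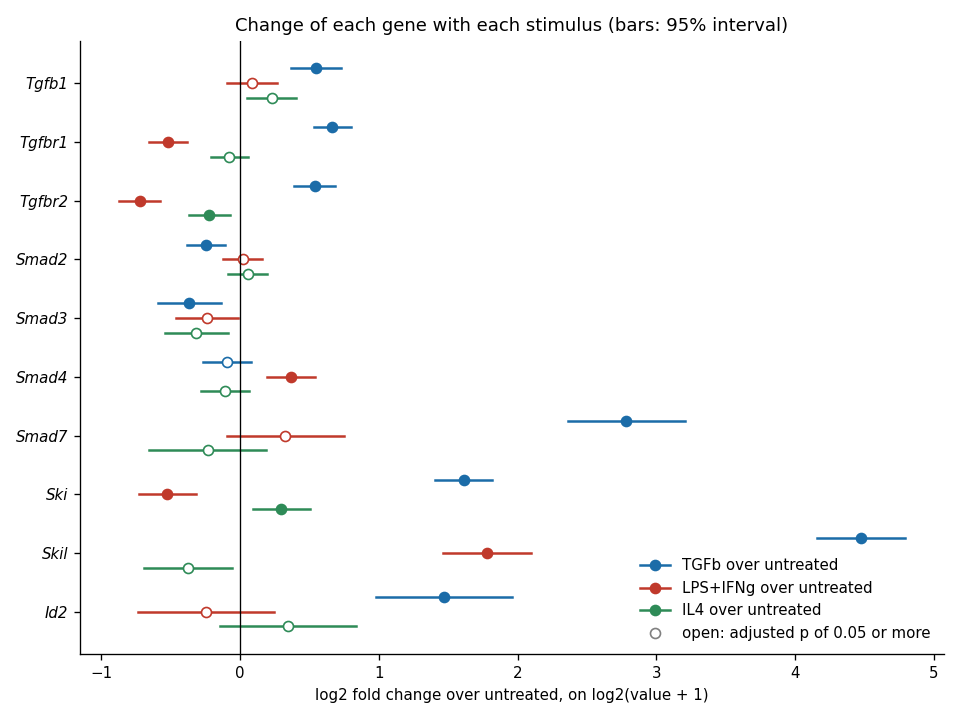
Log2 fold change of each gene over untreated, on log2(value + 1), for TGFb (blue), LPS+IFNg (red) and IL4 (green), with 95% intervals from limma, filled where the adjusted p was below 0.05. Skil at 4.47 and Smad7 at 2.78 lead the TGFb changes, Tgfbr1, Tgfbr2 and Ski lie right of 0 for TGFb and left of 0 for LPS+IFNg, and all IL4 values lie between -0.37 and 0.34.

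Id2 (chromosome 12, 25093799 to 25097140) encodes an inhibitor of basic helix-loop-helix transcription factors and is known as a gene regulated by the TGF-β family. It was at 1089.7, 1174 and 1082 in TGFb, 260.3, 207 and 717 in LPS+IFNg, 549, 528 and 458 in IL4, and 358 to 451 (median 402) in untreated libraries. The TGFb libraries were above all others, the IL4 libraries lay just above the untreated range, and the LPS+IFNg libraries fell on both sides of it. The mean was 1115 ± 51.0 with TGFb and 403 ± 29.9 in untreated libraries, 2.77-fold, with a log2 fold change of 1.47 (SE 0.23, adjusted p 4.33e-05). LPS+IFNg gave -0.25 (95% interval -0.74 to 0.24, adjusted p 0.373) with a mean of 395, and this rests on replicate 3. Without that library the mean was 234, the log2 fold change was -0.79 and the call was made (adjusted p 5.49e-08). No other gene of the 10 changed its LPS+IFNg call against untreated when that library was left out. IL4 gave 0.34 (-0.15 to 0.83, adjusted p 0.362), and passed when only IL4 and untreated libraries were fitted (adjusted p 0.00602). The main fit shares 1 estimate of spread over the 4 groups. The IL4 interval therefore also carries the spread of LPS+IFNg libraries (SD 280), beside SDs of 47.5 with IL4 and 29.9 untreated.

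Promoter windows of RefSeq (GRCm38.p6, 250 bases before to 50 after the start) were matched by symbol to 6 of the 9 genes that TGFb changed: Tgfb1, Tgfbr1 (2 windows), Tgfbr2, Smad3, Ski and Id2. Each was searched on both strands for letters known from SMAD binding: the palindrome GTCTAGAC, the box CAGACA and the GC-rich box GGCGCC, none of which contains another. GGCGCC occurred once each in the main window of Tgfbr1 and in those of Ski and Id2, CAGACA once in the second Tgfbr1 window, and GTCTAGAC in none. The windows of Tgfb1 and Tgfbr2, which also rose with TGFb, held no GGCGCC, and none was matched for Smad2, Smad7 and Skil. Of all 32851 windows, 11.9% held GGCGCC, 21.0% CAGACA and 0.213% GTCTAGAC. These shares are over windows of any GC content and were not matched to the GC-rich windows shown. The 3 stretches with GGCGCC are shown because they belong to a receptor, a repressor and a target that rose together with TGFb. They hold no base of a GENCODE exon of the gene, run 5′ to 3′ on the gene's strand, and carry the match in capitals. The first is chr4:47352972-47353221 on the plus strand, the second chr4:155222593-155222785 on the minus strand and the third chr12:25096254-25096342 on the minus strand, which lies in an intron of a longer Id2 transcript.
Tgfbr1: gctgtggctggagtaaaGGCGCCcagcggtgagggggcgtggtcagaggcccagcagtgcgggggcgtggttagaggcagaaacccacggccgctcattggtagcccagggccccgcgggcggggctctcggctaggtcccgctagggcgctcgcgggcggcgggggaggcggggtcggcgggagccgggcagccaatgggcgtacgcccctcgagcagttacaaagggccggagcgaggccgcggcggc
Ski: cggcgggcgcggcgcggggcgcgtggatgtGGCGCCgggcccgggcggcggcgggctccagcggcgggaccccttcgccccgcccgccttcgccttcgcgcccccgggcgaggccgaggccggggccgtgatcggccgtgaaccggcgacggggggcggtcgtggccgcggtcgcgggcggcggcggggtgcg
Id2: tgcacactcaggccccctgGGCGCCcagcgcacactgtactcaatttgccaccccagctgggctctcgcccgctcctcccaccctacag
Their GC content was 74.8%, 86.5% and 67.4%. The match starts 233, 220 and 231 bases before the RefSeq start of Tgfbr1, Ski and Id2. It describes the letters and is no evidence of binding.

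Set per kb of the longest annotated transcript, the repressors changed place. Which transcripts these cells express was not examined, so comparisons between different genes rest on those lengths. The level of Skil was 113 ± 1.79 per kb with TGFb and 5.04 ± 1.05 per kb untreated (SD, n = 3 and 6), and it stood sixth of the 10 genes with TGFb but last in untreated libraries. The level of Smad7 was 48.5 ± 1.81 per kb with TGFb and 6.90 ± 1.06 per kb untreated. Smad3 stood last with TGFb, at 25.4 ± 2.31 per kb against 32.9 ± 3.80 per kb untreated. Smad7 and Skil, each below Smad3 per kb in untreated cells, were thus both above it with TGFb. In LPS+IFNg libraries Skil was at 17.4 ± 1.06 per kb, still below Smad3 at 27.7 ± 2.22 per kb. The highest levels were those of Id2 at 566 ± 25.9 and Tgfb1 at 522 ± 15.5 per kb with TGFb, and of Tgfb1 at 359 ± 35.4 and Id2 at 205 ± 15.2 per kb untreated.

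**Figure D3:**
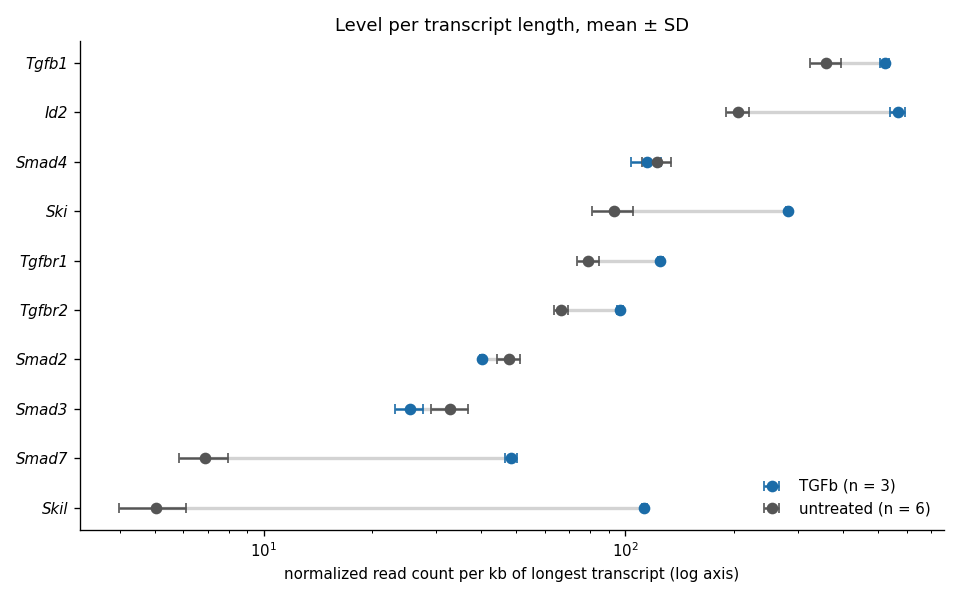
Mean normalized read count per kb of the longest annotated transcript (log axis, bars ± SD) for TGFb (blue, n = 3) and untreated (grey, n = 6) libraries, ordered by the untreated level. The gap is widest for Skil, 113 against 5.04 per kb, and Smad7, 48.5 against 6.90 per kb, while Smad2, Smad3 and Smad4 lie slightly left of their untreated level.

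Set directly against the other stimuli, TGFb libraries differed from LPS+IFNg libraries in 9 of the 10 genes (7 higher, 2 lower), where 62.6% of all tested genes passed, 30.8% higher and 31.9% lower. They differed from IL4 libraries in 8 (7 higher, 1 lower), where 39.7% of all genes passed, 19% higher and 20.7% lower. At 2-fold or more, 6 of the 10 genes differed from LPS+IFNg, where 16.3% of all genes did, and 4 from IL4, where 5.73% did. Over LPS+IFNg the log2 fold change was 2.69 for Skil, 2.46 for Smad7, 2.13 for Ski, 1.72 for Id2, 1.26 for Tgfbr2, 1.18 for Tgfbr1 and 0.46 for Tgfb1, with adjusted p between 7.56e-12 for Ski and 0.00051 for Tgfb1. Smad4 (-0.46, adjusted p 0.000309) and Smad2 (-0.26, adjusted p 0.00577) were lower with TGFb, and Smad3 did not pass (-0.13, 95% interval -0.39 to 0.13). Without LPS+IFNg replicate 3 the Id2 difference was 2.26. Over IL4 it was 4.85 for Skil, 3.02 for Smad7, 1.31 for Ski, 1.12 for Id2, 0.76 for Tgfbr2, 0.74 for Tgfbr1 and 0.32 for Tgfb1, the last with an adjusted p of 0.0153 that became 0.105 without IL4 replicate 1 and 0.0537 without TGFb replicate 3. Smad2 was lower with TGFb than with IL4 (-0.30, adjusted p 0.00417).

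LPS+IFNg and IL4 libraries differed in 6 of the 10 genes (3 higher, 3 lower with LPS+IFNg), where 57.7% of all genes passed, 28.8% in each direction. At 2-fold or more 1 of the 10 differed, Skil, where 12.9% of all genes did. Skil (2.15), Smad7 (0.56) and Smad4 (0.48) were higher with LPS+IFNg, and Ski (-0.82), Tgfbr2 (-0.50) and Tgfbr1 (-0.44) were lower, all on the log2 scale. The Smad7 call (adjusted p 0.0466) was lost under 8 alternatives, among them without LPS+IFNg replicate 3 (0.35, adjusted p 0.224). Id2 did not pass (-0.59, adjusted p 0.0681), and passed without LPS+IFNg replicate 3 (-1.13, adjusted p 8.42e-10).

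The genes whose pattern over the 15 libraries was most like that of a member were taken as the 3 of highest Pearson r on log2(value + 1), among 8669 genes with every group mean at 50 or more. For Tgfbr1 these were Mical2 (r = 0.99), Cxcr4 (0.98) and Cux1 (0.98), which keep r of 0.97, 0.94 and 0.94 over the 12 libraries without TGFb. Cxcr4, a chemokine receptor, averaged 1209 with TGFb, 137 with LPS+IFNg, 314 with IL4 and 347 untreated. For Skil they were Map4k3 (0.99), Chpt1 (0.98) and Slc2a1 (0.98), with r of 0.96, 0.93 and 0.94 without TGFb. Slc2a1, the glucose transporter GLUT1, averaged 1541 with TGFb, 1106 with LPS+IFNg, 761 with IL4 and 834 untreated. For Smad7 they were Ube2h, Tmbim1 and Extl3 (0.97 each), which drop to 0.52, 0.78 and 0.72 without TGFb. For Smad3 they were Fkbp9 (0.85), Nup85 (0.81) and Ticrr (0.80), the weakest likeness of the 4 genes. These libraries fall into 4 groups, so r mostly describes group means.

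The rest of the pathway was described from lists of genes chosen with earlier results of these data known. Tested were 6 of 33 listed ligand and activation genes, 14 of 17 receptor genes and 13 of 15 other SMADs and partners. Of the other lists, 26 of 29 inhibition and turnover genes, 14 of 27 SMAD targets and 12 of 19 microglia genes were tested. The rest were absent from the table and could not be scored. With TGFb, the median log2 fold change was 0.83 over 14 SMAD target genes and 0.75 over 12 microglia genes associated with TGF-β, against 0.01 over all tested genes. It was 0.28 over 13 other SMADs and partners, 0.10 over 14 receptor genes, 0.04 over 6 genes of ligands and their activation and 0.02 over 26 genes of SMAD inhibition and turnover. Some genes passed the filter for testing only through the TGFb libraries, where they were high. These were Snai1 among the targets, Olfml3, Cx3cr1 and Tmem119 among the microglia genes and Smad6 among the partners. The TGFb medians of these lists include them. Id3 among the targets passed only through the TGFb and LPS+IFNg libraries, and the target medians of both stimuli include it. With LPS+IFNg the same 6 medians were 0.51, -0.25, 0.04, -0.09, -0.07 and -0.02, against 0.00 over all genes, and with IL4 they were -0.08, 0.20, 0.20, 0.01, -0.07 and 0.01.

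Among genes of ligands and their activation, TGFb raised 2 of the 6 tested (33 listed) and lowered 1, which is 50% called and close to the 47.5% of all tested genes. Furin, the protease that cleaves the TGF-β precursor, averaged 3813 ± 209.7 with TGFb and 787 ± 65.2 untreated (adjusted p 1.63e-08). Itgav, the integrin αV chain that takes part in releasing latent TGF-β, averaged 2382 ± 73.6 with TGFb and 816 ± 36.6 untreated (adjusted p 9.87e-09). Gdf15, a distant family member, fell to 91.8 ± 26.6 with TGFb, against 219 ± 59.6 untreated. LPS+IFNg raised 2 and lowered 1 (50%, against 58.9% of all genes): Gdf15 averaged 705 ± 65.9, Furin 2635 ± 1523 (1756 without replicate 3) and Nrros, which tethers latent TGF-β on microglia, 793 ± 241 (931 without replicate 3) against 1505 ± 29.4 untreated. IL4 changed none of the 6 by limma, where 17.2% of all genes were called. At an unadjusted limma p below 0.05, a looser threshold to which the 17.2% does not apply, it changed 1, Itgav.

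Among the receptor genes outside the members, TGFb raised 5 and lowered 3 of 14, which is 57.1% called, against 47.5% of all tested genes. Acvr1, a type I receptor of the BMP and activin branch, averaged 176 ± 23.4 with TGFb and 102 ± 9.12 untreated, and Cd109, a co-receptor known to dampen TGF-β signalling, 170.1 ± 8.75 with TGFb and 99.9 ± 8.01 untreated. Fkbp1a, which binds the type I receptor, averaged 3461 ± 175 with TGFb and 4611 ± 125 untreated, and Strap, a receptor-associated protein that works with SMAD7, 962 ± 45.9 with TGFb and 1238 ± 72.4 untreated. LPS+IFNg raised 1 (Bmpr1a, 1118 ± 39.0 against 986 ± 33.1 untreated, a call lost under rescaling, adjusted p 0.305) and lowered 5, among them Cd109 at 36.2 ± 10.3 (41.3 without replicate 3), Fkbp1a at 3099 ± 177 and Bmpr2 at 679 ± 30.4. These 6 are 42.9% of the list, below the 58.9% of all genes. Cd109 thus rose with TGFb and fell with LPS+IFNg. IL4 raised Acvr1 (155 ± 11.5) and Bmpr1a (1090.3 ± 35.4, lost under 6 alternatives), and lowered Zfyve9, the SMAD anchor SARA (155 ± 21.9 against 200.1 ± 18.7 untreated, lost without IL4 replicate 2, adjusted p 0.157), which is 21.4% called, against 17.2% of all genes.

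Of 13 tested other SMADs and partners, TGFb raised 7 and lowered none, which is 53.8% called, against 47.5% of all tested genes (24.1% higher). Smad6 is among the 7. It passed the filter for testing only through the TGFb libraries, so its rise with TGFb was fixed in advance. Fos and Junb, AP-1 subunits that bind with SMADs, averaged 485 ± 21.0 and 1099 ± 156 with TGFb and 111 ± 10.3 and 291 ± 90.1 untreated. Runx1 was at 569 ± 37.0 with TGFb and 413 ± 20.7 untreated, and Trim33, a ubiquitin ligase that binds SMADs, at 1925 ± 21.8 with TGFb and 1588 ± 61.4 untreated. LPS+IFNg raised 4 and lowered 3 (53.8%, against 58.9% of all genes). Junb rose there too (758 ± 80.9), as did Atf3 (2564 ± 1103, or 1927 without replicate 3, against 1396 ± 42.4 untreated) and Smad1 (87.0 ± 10.6 against 58.2 ± 12.8 untreated), while Fos fell to 41.4 ± 29.5 (24.8 without replicate 3). Without LPS+IFNg replicate 3 the counts were 3 higher and 1 lower, and the Smad1 call was lost under quantile normalization (adjusted p 0.0715) and without LPS+IFNg replicate 1 (adjusted p 0.0658). IL4 raised Runx1 (539 ± 52.8) and Atf3 (2157 ± 36.3) and lowered none (15.4%, against 17.2% of all genes).

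Of 26 genes of SMAD inhibition and turnover, TGFb raised 4 and lowered 5, which is 34.6% called, below the 47.5% of all tested genes. Tgif1, a SMAD co-repressor, averaged 949 ± 56.3 with TGFb and 562 ± 35.9 untreated, and Smurf2, a ubiquitin ligase of the receptors and SMADs, 333 ± 15.3 with TGFb and 257 ± 11.95 untreated. Xpo4, an exporter of SMAD3, was at 333 ± 5.69 with TGFb and 489 ± 14.4 untreated, and Uchl5, a deubiquitinase, at 430.1 ± 8.91 with TGFb and 573 ± 28.6 untreated. LPS+IFNg raised 6 and lowered 8 (53.8%, against 58.9% of all genes). Smurf1, the paralog of Smurf2, averaged 1334 ± 313 with LPS+IFNg (1154 without replicate 3) and 432 ± 30.9 untreated, and Tgif1 1627 ± 496 with LPS+IFNg (1341 without replicate 3), whereas the ubiquitin ligase Wwp1 fell to 505 ± 15.1 with LPS+IFNg, against 1006 ± 91.5 untreated, and the phosphatase Ctdsp1 to 365 ± 30.9, against 545 ± 33.2. Without LPS+IFNg replicate 3 the counts were 6 higher and 5 lower. IL4 raised 1 (Usp4, 1111 ± 44.9 against 975 ± 32.4 untreated) and lowered 2 (Ctdsp2, 896 ± 13.8 against 1037 ± 32.5, and Xpo4, 417 ± 22.8), and the Usp4 and Xpo4 calls were lost under 2 alternatives each. These 3 are 11.5% of the list, against 17.2% of all genes.

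Of 14 tested SMAD target genes (27 listed), TGFb raised 10 and lowered 2, which is 85.7% called, against 47.5% of all tested genes. Snai1 is among the 10. It passed the filter for testing only through the TGFb libraries, so its rise with TGFb was fixed in advance. Itgb5, the integrin β5 chain, averaged 562 ± 10.2 with TGFb and 21.4 ± 6.66 untreated, 26.2-fold, and the growth factor gene Pdgfb 1956 ± 18.1 with TGFb and 806 ± 45.9 untreated. Itgb7, the integrin β7 chain, fell to 218 ± 21.1 with TGFb, against 491 ± 40.9 untreated. LPS+IFNg raised 9 and lowered 2 of the 14 (78.6%, against 58.9% of all genes). Itgb7 averaged 1863 ± 95.6 with LPS+IFNg, the opposite of its TGFb direction, and Skp2 fell to 222 ± 37.6 with LPS+IFNg, against 467 ± 14.4 untreated. Id3 averaged 149 ± 27.3 with LPS+IFNg (134 without replicate 3). Untreated libraries held Id3 at 6.10 ± 3.45 (1 to 10.8, 44 reads in all) and IL4 libraries at 6.57 to 8.47. Id3 passed the filter for testing only through the LPS+IFNg and TGFb libraries. Its rises, counted among the 10 and the 9, are in part a product of that filter. IL4 raised 2 (Bcl2l11, 1125 ± 55.3 against 872 ± 45.5, and Cdkn1a, 2730.3 ± 134 against 2121 ± 123 untreated) and lowered 2 (Pdgfb, 612 ± 22.1, and Klf11, 83.0 ± 5.89 against 114 ± 6.42 untreated), which is 28.6% called, against 17.2% of all genes. The Cdkn1a call was lost without the 3 libraries of fewest reads (adjusted p 0.0561) and without IL4 replicate 2 (adjusted p 0.0615).

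Of 12 tested microglia genes associated with TGF-β (19 listed), TGFb raised 7 and lowered none, which is 58.3% called, against 47.5% of all tested genes (24.1% higher). Olfml3, Cx3cr1 and Tmem119 passed the filter for testing only through the TGFb libraries, so their rise with TGFb was fixed in advance. The count of 7 and the list's median are in part a product of that filter. The transcription factor gene Mef2a averaged 440.2 ± 4.36 with TGFb and 263 ± 9.08 untreated. Olfml3, a secreted matrix protein, was at 239 ± 21.3 with TGFb (867 reads over 3 libraries), whereas the 6 untreated libraries held 1 read in all and stood at 1 to 1.08, the floor of the table. LPS+IFNg raised 1 and lowered 6 (58.3%, against 58.9% of all genes). Mef2c fell to 142 ± 12.3 there, against 436 ± 42.1 untreated, and Gas6, a ligand of TAM receptors, to 756 ± 170.5 with LPS+IFNg (854 without replicate 3), against 2405 ± 80.1 untreated. IL4 raised 3, among them Mertk (261 ± 38.0 against 143 ± 24.2 untreated), and lowered 2, among them Mef2c (271 ± 14.4), which is 41.7% called, against 17.2% of all genes. The Mertk call was lost without the 3 libraries of fewest reads (adjusted p 0.0628) and without IL4 replicate 1 (adjusted p 0.0623).

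**Figure D4:**
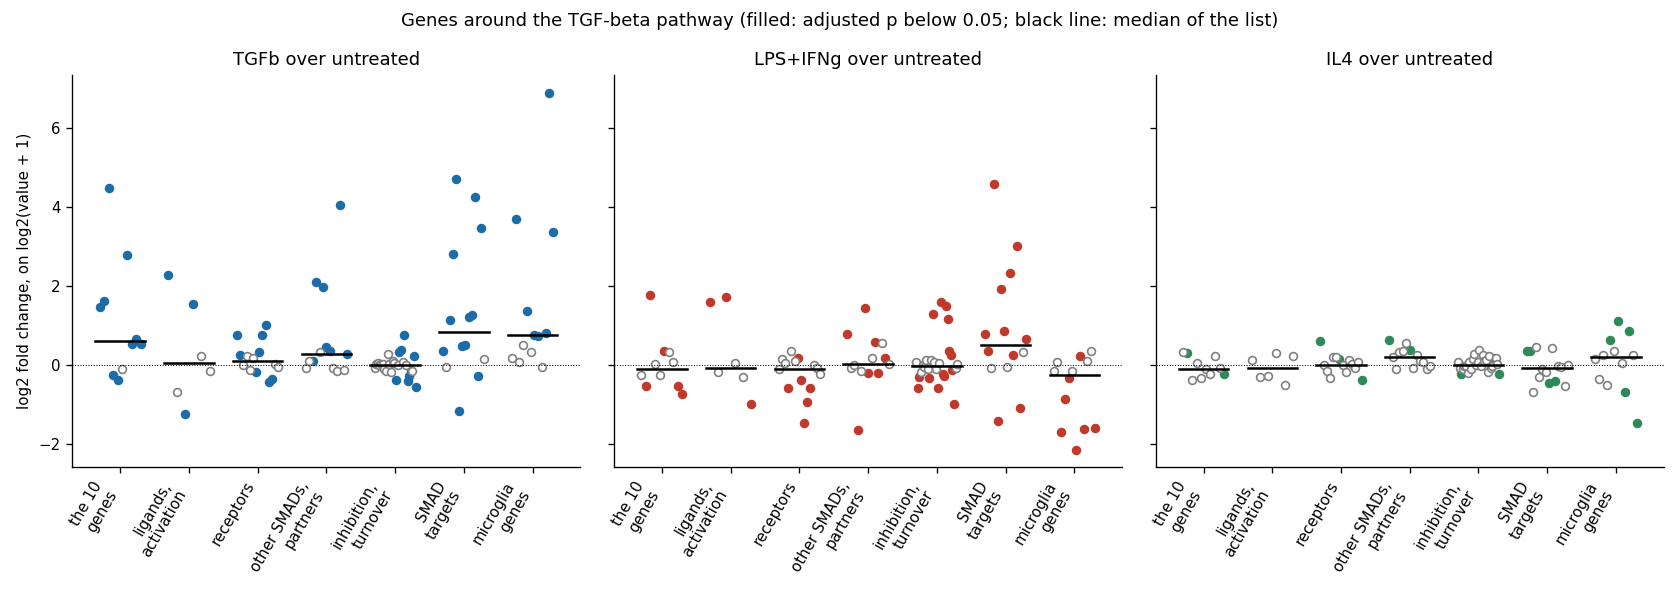
Log2 fold change over untreated, on log2(value + 1), of the 10 genes and of each tested gene of the 6 lists, for TGFb, LPS+IFNg and IL4, filled where the adjusted p was below 0.05, with the median of each list as a black line. The TGFb medians of SMAD target and microglia genes, 0.83 and 0.75, lie above 0, those of receptor genes and of inhibition and turnover genes near 0, and the highest point, Olfml3 in TGFb, starts from the floor and its height is no measured fold. Olfml3, Cx3cr1, Tmem119, Snai1 and Smad6 passed the filter for testing only through the TGFb libraries, and Id3 only through the TGFb and LPS+IFNg libraries.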

How the data were processed

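Total RNA of ESdM gave 15 libraries (3 each for TGFb, LPS+IFNg and IL4, 6 untreated), built with Illumina's TruSeq RNA kit per the labels' protocols. The submitters' processing notes name TopHat2 2.0.3, Partek 6.6, R 3.0.2, DESeq2 and the mm10 genome; the annotation, the counting rule and the use of strand are not given in the sources used here. The deposited table holds 1 normalized signal per gene and library. The values themselves show that each library's counts were scaled by a single factor and raised to a floor of 1: after undoing the factor, 100% of values above 1 and below 100 were whole to within 0.01 reads, and 276 of 11201 genes hold a floor value. All 15 columns were used and 0 left out. Such scaling takes most genes as alike between groups, so a shift common to all genes would not show.

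Values were tested as log2(value + 1) with limma 3.58.1 in R 4.3.3 (empirical Bayes trend), in 1 fit of the 4 groups, for the 11138 genes that reached 10 in 3 or more libraries, with Benjamini-Hochberg adjustment over all of them and 6 contrasts. The test was checked on simulated data with known changes, drawn from untreated means with the same dispersion in every library. The wider spread among the LPS+IFNg libraries was not simulated, so the check does not cover it. Count tests (edgeR, DESeq2) were not run, because reads could not be recovered in full in every library. In some libraries a floor value can hide 1 read, or up to 2 in untreated replicate 6. Gene positions and transcript lengths are from GENCODE M21 (GRCm38). Groups come from the labelled stimulation, and replicate numbers follow accession order and only name libraries. Reads are not independent molecules, so read totals cover counting error only. The members and lists were chosen with earlier results of these data known. The text names all 10 members and, per list and stimulus, up to 4 called genes of smallest adjusted p whose higher group mean reached 50; some of the genes so named are not reported here. Alternatives were other scalings, pseudocounts of 0.5 and 5, other filters, 2-group fits, a 2-fold minimum and leaving out libraries.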

Additional observations from a re-analysis of the deposited data

Results flagged for a closer look

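In groups of 4 to 10 libraries, here the untreated group, a value was picked out where its gap to the nearest library was a large part of the group's range, and chance picks about 1 in 20 groups; 52 genes were examined. Smad4 was lowest in untreated replicate 4 at 339.04, against 420.0 to 439 in the other 5 untreated libraries. Gas6 was lowest in the same library at 2252.8, against 2408 to 2492 in the others, and Zfyve9 was highest in it at 235.36, against 184 to 203. Untreated replicate 4 is the library with the fewest reads. Skp2 was lowest in untreated replicate 3 at 439.27, against 466 to 479.9 in the others. Olfml3 was highest in untreated replicate 5 at 1.0784, which is 1 read, where the others were at the floor of 1.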

How the results depend on the processing

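The count of the 10 genes that TGFb changed was 9 under every other scaling, pseudocount, filter and fit, and 8 to 9 when 1 library was left out. The 9 were not always the same genes. Without the 3 libraries of fewest reads the Smad3 call was lost and a Smad4 call was gained. No value of a member turned its sign past the test, and of the member values under all alternatives 947 kept their side of the threshold, 27 lost it and 16 gained it. Leaving out 1 library gave 5 to 6 members for LPS+IFNg, 0 to 3 for IL4, 9 for TGFb over LPS+IFNg, 7 to 8 for TGFb over IL4 and 5 to 7 for LPS+IFNg over IL4. Over all genes the same gave 4432 to 5179 for TGFb, 6039 to 6602 for LPS+IFNg, 1130 to 1868 for IL4, 6358 to 6716 for TGFb over LPS+IFNg, 3729 to 3849 for TGFb over IL4 and 5820 to 6206 for LPS+IFNg over IL4. The lowest IL4 count, 1130 against 1917, came without IL4 replicate 2. IL4 changed 1 member under quantile normalization and 0 without the 3 libraries of fewest reads; the cause was not tested.

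A 2-fold minimum left, by construction, 4 members and 563 genes for TGFb, 1 and 1189 for LPS+IFNg, 0 and 114 for IL4, 4 and 638 for TGFb over IL4 and 1 and 1439 for LPS+IFNg over IL4. For TGFb over LPS+IFNg it left 6 members and 1816 genes. With every library rescaled to 1 common total, the median over all genes shifted by -0.12 for LPS+IFNg, and quantile normalization lowered the share of its calls that were higher to 38.8%. The called changes of the members keep their sign under both; uncalled values near 0, such as Tgfb1 with LPS+IFNg, do not all do so.

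Alternatives for the lists were chosen after seeing the data. Of their named genes 19 values lost a call and 0 changed sign. The counts that moved by over 1.5 times were, for TGFb, 5 ligand and activation genes with only the 2 groups fitted and 5 receptor genes without the 3 shallowest libraries, for LPS+IFNg 4 partners without replicate 3, and for IL4 2 ligand genes and 8 inhibition genes with 2 groups, 4 partners under rescaling or without IL4 replicate 1, and 1 receptor gene without IL4 replicate 2.

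No paired analysis was possible because the labels give no replicate number that groups share. edgeR and DESeq2, planned on recovered reads, were not run. Depth is lowest for Smad7 and Skil, at 12 to 70 and 9 to 81 reads per untreated library.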

Other observations

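Smad6, the other inhibitory SMAD, was too low to be named by the rule and was chosen after its values were seen. It stood at 29.9 to 45.6 in the TGFb libraries (141 reads in all), against 1 to 1.89 in the 6 untreated libraries (3 reads in all), 1 to 4.30 in LPS+IFNg and 1 to 1.62 in IL4 libraries. Its level was thus at or near the floor of the table outside TGFb, where no fold can be given. Cx3cr1, the fractalkine receptor of microglia, averaged 39.5 with TGFb, 3.30 with LPS+IFNg (libraries at 1 to 7.90), 1.49 with IL4 and 2.60 untreated. Tmem119, a microglia surface protein, averaged 82.3 with TGFb, 1.86 with LPS+IFNg (libraries at 1 to 3.44), 2.03 with IL4 and 7.62 untreated. Aif1, the gene of the marker IBA1, was at 219 with LPS+IFNg and at 24.8 to 46.2 in the means of the other groups.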
